A study of Caenorhabditis elegans with 6 samples.

Results

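The genes described here are 24 protein-coding genes of Caenorhabditis elegans whose transcript level was higher in every library of tryptophan-fed animals than in every control library, by a fixed margin, and which lie outside 13 large gene families. The margin asked that the lowest tryptophan value plus 1 FPKM be at least 1.5 times the highest control value plus 1 FPKM, in a gene with a mean of at least 1 FPKM over the 6 libraries. FPKM counts fragments relative to gene length and library size, and is thus a level corrected for gene length and library size. Of 12783 protein-coding genes abundant enough to be tested, 53 passed the margin, and 29 of these were left out because their symbols begin with cyp-, ugt-, gst-, clec-, irg-, dod-, cdr-, col-, msp-, nhr-, cest-, nep- or fbxa-. The left-out genes were 9 cyp, 8 ugt, 3 gst, 3 irg, 2 cdr, 2 cest and 2 clec genes.

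The tryptophan group was wild-type hermaphrodites given 5 mM tryptophan from the fourth larval stage (L4) on, over 36 h, in 3 libraries. The control group was wild-type hermaphrodites collected 36 h after L4, in 3 libraries. All animals were kept at 20 °C, on nematode growth medium plates up to L4, and were harvested whole as young adults. The labels do not say whether libraries of a group came from separate cultures, so the spread given here is the spread between these libraries.

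Tryptophan is an amino acid that animals cannot make and must take from food. Small foreign or surplus molecules are handled in the worm gut by enzymes that oxidise or reduce them, enzymes that attach a sugar or glutathione, and pumps of the ATP-binding cassette (ABC) class that export them. The same tissue secretes proteins of innate immunity, among them proteins with a CUB-like domain whose genes respond to infection, and it stores and burns fat. The 24 genes include members of several of these classes, and the families left out hold most of the P450, glucuronosyltransferase and glutathione S-transferase genes.

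The genes were chosen by their FPKM values in all 6 libraries, so the separation of the groups is a description and no p is given for any of them. The margin was passed in the higher direction by 0.415% of the tested protein-coding genes and in the lower direction by 0.0782%, or 10 genes. Groups that did not overlap at all, without a margin, were seen for 3.97% of these genes in the higher and 4.4% in the lower direction. In a linear model over all 13511 tested genes (limma), 0 genes had an adjusted p under 0.05, which is 0% of the genes, and 0 of the 24 did. The smallest adjusted p in limma was 0.188, and 111 genes were higher and 47 lower at an unadjusted p under 0.05. The difference in mean log2(FPKM + 1), tryptophan minus control, had a median of 1.57 over the 24 genes and ranged from 0.89 for pgp-3 to 3.07 for T16G1.6, against a median of -0.04 over all tested protein-coding genes. On this scale the change of genes with low FPKM is understated.

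**Figure D1:**
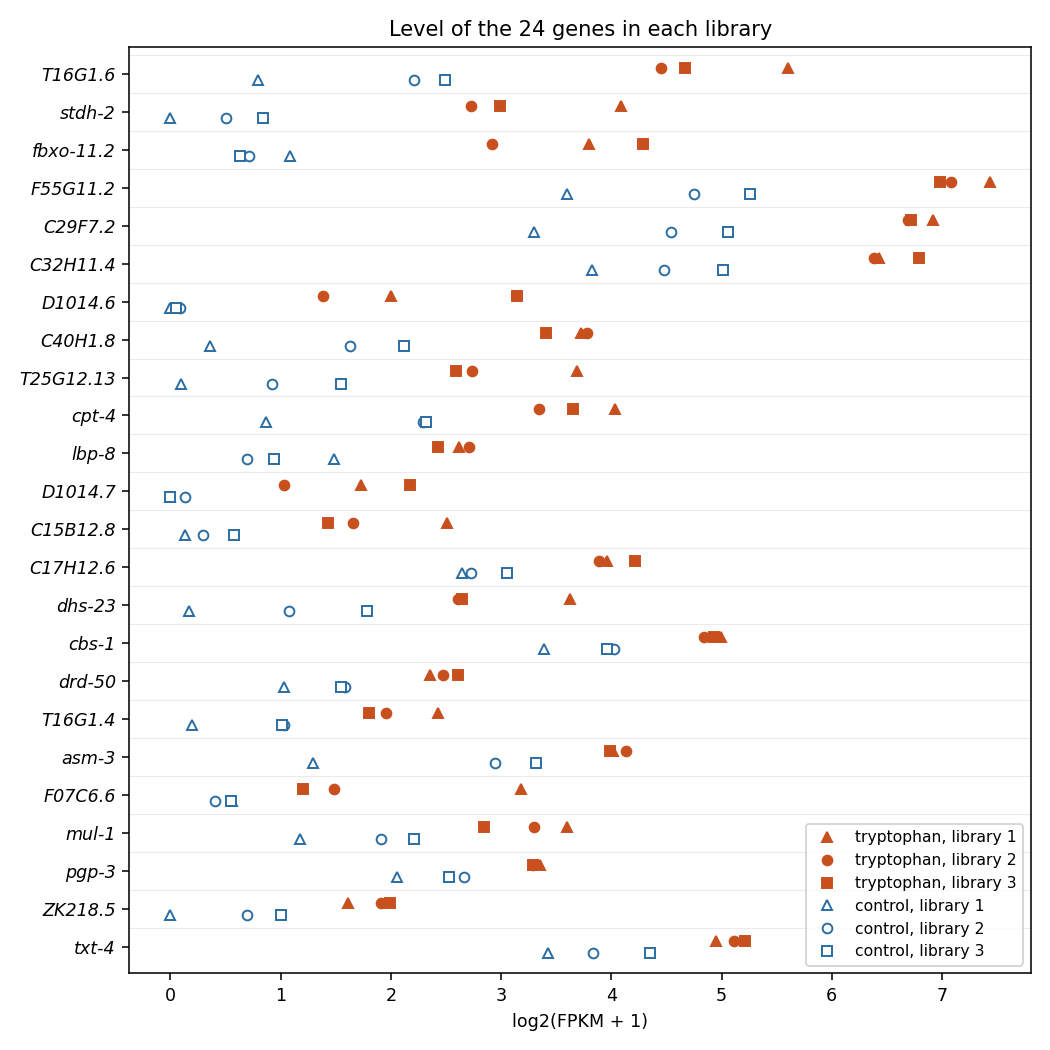
Level of each of the 24 genes in each library, as log2(FPKM + 1). Filled orange symbols are the 3 tryptophan libraries and open blue symbols the 3 control libraries, triangles standing for library 1, circles for library 2 and squares for library 3. Genes run from the widest margin (T16G1.6) to the narrowest (txt-4), and symbols at the same value cover each other, as for D1014.7, listed at 0 in control libraries 1 and 3.

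Libraries 1 of the groups stood apart. FPKM summed over all identifiers to 1115620, 715748 and 608336 in tryptophan and to 1013590, 733462 and 824915 in control libraries 1 to 3. How even a gene looks within a group therefore depends on the scaling, and such statements below refer to FPKM. Across all tested genes the correlation of tryptophan library 1 with control library 1 was 0.578, against 0.960 to 0.980 among the other 4 libraries. The 6 yolk protein genes, all tested, summed to 406, 3951 and 1885 FPKM in tryptophan libraries 1 to 3 and to 19564, 1865 and 946 FPKM in control libraries 1 to 3. Of 73 sperm genes 71 were tested, and they summed to 24042, 6376 and 6651 FPKM in tryptophan libraries 1 to 3 and to 695, 8363 and 9621 FPKM in control libraries 1 to 3. The 20 oocyte and eggshell genes, all tested, summed to 1536, 3608 and 2464 FPKM in tryptophan and to 13527, 3302 and 3243 FPKM in control libraries 1 to 3. No marker on these lists was at 0 in all 6 libraries. The 9 intestinal marker genes found summed to 2707 to 5284 FPKM in tryptophan and 4153 to 4222 FPKM in control libraries, and 0 of 8 genes of male neurons reached the level for testing, with sums of at most 3.48 FPKM. In whole animals fewer cells of a type and less RNA per cell cannot be told apart. The part of these library differences in the values of the 24 genes was not tested, and each difference is therefore also given for libraries 2 and 3 of the groups alone, where its direction is set by the same rule.

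The 3 genes stdh-2, dhs-23 and pgp-3 encode proteins that could act on small molecules directly, and all were low or moderate in control animals. stdh-2 (F11A5.12, chromosome V, bases 16224327 to 16225655, plus strand, WBcel235) belongs to a family of steroid dehydrogenases, which oxidise or reduce sterol-like molecules. It stood at 15.98, 5.601 and 6.96 FPKM in the tryptophan libraries, against 0, 0.416 and 0.795 FPKM in the control libraries. All control libraries were below 1 FPKM, and tryptophan library 1 was the highest of its group. The difference was 2.82 on the log2 scale (SE 0.48, n = 3 each), and 2.19 in libraries 2 and 3. Of its relatives, stdh-1 had 21.6, 13.1 and 14.96 FPKM in the tryptophan and 20.2, 13.9 and 16.4 FPKM in the control libraries, with the groups overlapping, and stdh-3 and stdh-4 were too low to test.

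dhs-23 (R08H2.1, chromosome V, 15381219 to 15382271, plus strand) encodes a short-chain dehydrogenase, of a large class of enzymes that move hydrogen to and from alcohols, ketones and related groups. It had 11.3, 5.09 and 5.27 FPKM in the tryptophan libraries, against 0.124, 1.11 and 2.43 FPKM in the control libraries. The highest tryptophan and the lowest control value were both in libraries 1, and the difference of 1.95 (SE 0.54) was 1.20 in libraries 2 and 3. pgp-3 (ZK455.7, chromosome X, 11352156 to 11357094, plus strand) encodes a P-glycoprotein, an ABC pump that exports drugs and toxins. Its levels were 9.21, 8.77 and 8.78 FPKM in the tryptophan libraries and 3.16, 5.33 and 4.76 FPKM in the control libraries. In FPKM the tryptophan libraries hardly differed from each other (8.92 ± 0.253 FPKM, SD, n = 3, against 4.42 ± 1.12 FPKM in control). With FPKM rescaled to equal sums per library (TPM), its margin ratio fell from 1.54 to 1.12, below 1.5. The difference of 0.89 (SE 0.39) was the smallest of the 24 and was 0.70 in libraries 2 and 3.

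Of 41 tested ABC transporter genes, pgp-3 alone passed the margin in the higher direction and 0 passed it in the lower, with 23 of the 41 differences positive. pgp-1, another pump of the class, lay just outside the margin with 7.69, 14.5 and 9.77 FPKM in the tryptophan and 1.48, 5.17 and 3.46 FPKM in the control libraries. pgp-4 lies 721 bases beyond pgp-3 on the same strand, and its 0.404, 1.75 and 1.28 FPKM in the tryptophan libraries overlapped the 0.628, 1.15 and 1.16 FPKM of the control libraries. Of 31 tested short-chain and steroid dehydrogenase genes, stdh-2 and dhs-23 passed in the higher and 0 in the lower direction, and 18 of the 31 differences were positive. Over all tested protein-coding genes 0.415% passed in the higher and 0.0782% in the lower direction, and 47.1% of differences were positive.

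Genes for CUB-like secreted proteins, a class induced in the gut by infection, were among the most abundant of the 24. F55G11.2 (chromosome IV, 12967445 to 12969289, minus strand) reached 172, 135 and 126 FPKM in the tryptophan libraries, against 11.12, 25.9 and 37.2 FPKM in the control libraries. C32H11.4 (chromosome IV, 12921264 to 12923296, plus strand) had 84.9, 82.7 and 109.7 FPKM in the tryptophan libraries, against 13.2, 21.3 and 31.2 FPKM in the control libraries. In both genes the control libraries differed among themselves more, in proportion, than the tryptophan libraries did, with control library 1 lowest and control library 3 highest. The differences were 2.64 (SE 0.50) for F55G11.2 and 2.10 (SE 0.43) for C32H11.4, and 2.03 and 1.84 in libraries 2 and 3.

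C17H12.6 (chromosome IV, 6821065 to 6822506, minus strand), also of the CUB-like class, was lower and more even, at 14.6, 13.9 and 17.6 FPKM in the tryptophan libraries, against 5.26, 5.63 and 7.30 FPKM in the control libraries. Its difference of 1.22 (SE 0.39) was 1.16 without libraries 1. Some close neighbours of these genes had no such gap. C17H12.8, 489 bases from C17H12.6, had 56.4, 137 and 137 FPKM in the tryptophan and 90.2, 86.4 and 130.5 FPKM in the control libraries, groups that overlap. F55G11.4, also near F55G11.2, was more abundant than it at 260.2, 206 and 252 FPKM in the tryptophan libraries, against 18.8, 217 and 251 FPKM in the control libraries. Its difference of 1.22 (SE 0.93) rests on control library 1, the other 5 libraries lying close together. Other neighbours were higher in every tryptophan library than in every control library but missed the margin. Among them were F55G11.8 and dod-17 near F55G11.2, with ratios of 1.11 and 1.15, and H20E11.2 near C17H12.6, with 1.30. How reads were divided among related genes of this class is not known, since neither the counting nor the sequences were examined.

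The widest margin of the 24 belonged to T16G1.6 (chromosome V, 12935538 to 12937174, minus strand), in which the lowest tryptophan library was 3.87 times the highest control library, each plus 1 FPKM. It encodes a protein with a kinase-like domain of the CHK type, related to insect ecdysteroid kinases and choline kinases. It had 47.7, 20.8 and 24.5 FPKM in the tryptophan libraries, against 0.737, 3.63 and 4.63 FPKM in the control libraries. Tryptophan library 1 was the highest and control library 1 the lowest, and the difference of 3.07 (SE 0.60) was 2.21 in libraries 2 and 3. T16G1.4 (chromosome V, 12940141 to 12941847, minus strand), from the same row of genes, was lower, at 4.38, 2.87 and 2.49 FPKM in the tryptophan libraries and 0.147, 1.05 and 1.02 FPKM in the control libraries. Its difference was 1.31 (SE 0.39), and 0.85 without libraries 1.

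fbxo-11.2 (BE0003N10.3, chromosome III, 1046261 to 1053242, minus strand) is named as an F-box gene, a class whose proteins choose targets for ubiquitin ligases. It had 12.9, 6.57 and 18.5 FPKM in the tryptophan libraries, against 1.12, 0.636 and 0.553 FPKM in the control libraries. It was one of the 3 genes in which control library 1 was not the lowest control, and its difference was about the same over all libraries (2.86, SE 0.47) and in libraries 2 and 3 (2.93). Of 104 tested genes of F-box families outside fbxa and of MATH, BATH, BTB, skr and pals genes, fbxo-11.2 alone passed the margin, with 0 lower and 50 of the 104 differences positive. The shares over all tested protein-coding genes were 0.415% higher, 0.0782% lower and 47.1% positive. The gene overlaps BE0003N10.1 on the other strand by 15 bases, and the sources used here do not state whether counting used strand.

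The 3 genes cpt-4, lbp-8 and asm-3 act on lipids. cpt-4 (K11D12.4, chromosome V, 5023706 to 5027723, minus strand) is named as a carnitine palmitoyltransferase, the kind of enzyme that loads long fatty acids onto carnitine for entry into mitochondria. It stood at 15.4, 9.14 and 11.6 FPKM in the tryptophan libraries, against 0.822, 3.91 and 3.99 FPKM in the control libraries, a difference of 1.85 (SE 0.53). Control library 1 was far below its fellows, and in libraries 2 and 3 the difference was 1.19. None of its tested relatives passed the margin. cpt-2 had 53.3, 68.1 and 77.5 FPKM in the tryptophan and 68.7, 61.2 and 59.9 FPKM in the control libraries. cpt-1 had 22.2, 83.5 and 65.9 FPKM in the tryptophan and 180.2, 80.9 and 70.0 FPKM in the control libraries. The groups overlapped in both, and the outlying values of cpt-1 were those of libraries 1. cpt-5 and cpt-6 had differences of 0.22 (SE 0.38) and -0.815 (SE 0.49), and cpt-3 was too low to test.

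lbp-8 (T22G5.6, chromosome V, 13890773 to 13891364, plus strand) encodes a lysosomal fatty acid-binding protein that carries lipid signals to the nucleus. Its levels were 5.12, 5.55 and 4.38 FPKM in the tryptophan libraries, against 1.80, 0.620 and 0.918 FPKM in the control libraries. Here control library 1 was the highest control, and the difference was larger without libraries 1 (1.75) than with them (1.54, SE 0.37). None of the other 8 lbp genes, all tested, passed the margin. The largest difference among them, 1.06 (SE 0.78), was that of lbp-7, which had 190.4, 67.7 and 68.3 FPKM in the tryptophan and 13.98, 72.0 and 91.6 FPKM in the control libraries.

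asm-3 (W03G1.7, chromosome IV, 520214 to 523809, minus strand) encodes an acid sphingomyelinase, which splits sphingomyelin into ceramide and phosphocholine. It had 15.2, 16.6 and 14.8 FPKM in the tryptophan libraries, against 1.44, 6.68 and 8.96 FPKM in the control libraries. In FPKM the tryptophan libraries were tight (15.5 ± 0.914 FPKM, SD, n = 3) and the controls wide (5.69 ± 3.85 FPKM). Rescaling to TPM lowered the margin ratio from 1.59 to 1.23. The difference of 1.53 (SE 0.59) was 0.93 in libraries 2 and 3. asm-1 and asm-2, its family, had differences of 0.17 (SE 0.44) and 0.05 (SE 0.42), and neither passed the margin. Among 93 tested genes of lipid breakdown and fatty acid enzymes, cpt-4 and lbp-8 passed in the higher and fat-7 and lips-15 in the lower direction, with 47 of the 93 differences positive. Of all tested protein-coding genes 0.415% passed in the higher and 0.0782% in the lower direction, and 47.1% had a positive difference.

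cbs-1 (ZC373.1, chromosome X, 10054275 to 10057528, plus strand) encodes cystathionine beta-synthase, which joins homocysteine to serine at the entry to cysteine synthesis and can release hydrogen sulfide. It was among the more abundant of the 24, at 30.9, 27.6 and 29.5 FPKM in the tryptophan libraries, against 9.45, 15.2 and 14.6 FPKM in the control libraries. In FPKM the spread within each group was small beside the gap (29.3 ± 1.64 FPKM with tryptophan, 13.1 ± 3.17 FPKM in control, SD, n = 3 each). Rescaling to TPM lowered the margin ratio from 1.76 to 1.32. The difference was 1.13 (SE 0.39), or 0.89 without libraries 1. cbs-2 had 14.6, 7.36 and 6.14 FPKM in the tryptophan and 0.4998, 8.66 and 7.67 FPKM in the control libraries, so its difference of 0.97 (SE 0.78) rests on libraries 1. cth-1 and cth-2, the enzymes of the next step, had differences between -0.01 and 0.15, and neither passed the margin.

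mul-1 and drd-50 lie close together on chromosome IV. mul-1 (F49F1.6, 4121342 to 4123166, minus strand) encodes a mucin-like protein and had 11.12, 8.87 and 6.17 FPKM in the tryptophan libraries, against 1.26, 2.76 and 3.61 FPKM in the control libraries. drd-50 (F49F1.1, 4117732 to 4119179, plus strand), named as a gene lowered by dietary restriction, had 4.13, 4.56 and 5.08 FPKM in the tryptophan libraries and 1.04, 1.99 and 1.93 FPKM in the control libraries. The difference was 1.48 (SE 0.45) for mul-1 and 1.09 (SE 0.36) for drd-50, and 1.01 and 0.97 in libraries 2 and 3. Of the 4 drd genes, all tested, only drd-50 passed the margin.

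txt-4 (K03H6.2, chromosome IV, 1510564 to 1515457, plus strand) had the narrowest margin of all, with 29.8, 33.7 and 36.0 FPKM in the tryptophan libraries and 9.72, 13.3 and 19.4 FPKM in the control libraries. Its difference was 1.22 (SE 0.41), and 1.07 in libraries 2 and 3. None of the other 10 tested txt genes passed. txt-4 overlaps clec-172 on the other strand by 5 bases.

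Of the 13 genes known here only by a sequence name, the other 8 made up the rest of the set. The most abundant was C29F7.2 (chromosome X, 13416078 to 13418220, plus strand), with 120.2, 102 and 104 FPKM in the tryptophan libraries, against 8.84, 22.3 and 32.2 FPKM in the control libraries. The tryptophan libraries differed little (109 ± 9.76 FPKM, SD, n = 3) and the controls more in proportion (21.1 ± 11.7 FPKM). The difference was 2.48 (SE 0.51), and 1.91 in libraries 2 and 3, while C29F7.1 on the same strand upstream had 15.4, 6.03 and 6.90 FPKM in the tryptophan and 2.16, 5.96 and 5.15 FPKM in the control libraries.

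C40H1.8 (chromosome III, 9314717 to 9317164, plus strand) had 12.2, 12.76 and 9.60 FPKM in the tryptophan libraries, against 0.282, 2.10 and 3.35 FPKM in the control libraries. T25G12.13 (chromosome X, 17243353 to 17244818, plus strand) had 11.9, 5.64 and 5.04 FPKM in the tryptophan libraries, against 0.0717, 0.890 and 1.92 FPKM in the control libraries. Both were lowest in control library 1, but the tryptophan libraries were even for C40H1.8 and led by library 1 for T25G12.13. The differences were 2.27 (SE 0.54) and 2.15 (SE 0.52), and 1.72 and 1.43 in libraries 2 and 3.

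D1014.6 (chromosome V, 8121168 to 8123470, plus strand) and D1014.7 (8118264 to 8120417, plus strand) were close to undetected in control animals. D1014.6 had 3.01, 1.61 and 7.85 FPKM in the tryptophan libraries, against 0, 0.0648 and 0.0349 FPKM in the control libraries. D1014.7 had 2.30, 1.04 and 3.50 FPKM in the tryptophan libraries, against 0, 0.0942 and 0 FPKM in the control libraries. In both genes the order within the tryptophan group was library 3, then 1, then 2. At the estimated depth the highest control value stood for about 2.2 counted fragments or reads for D1014.6 and 3.3 for D1014.7, and the lowest tryptophan value for about 54 and 35. The differences of 2.13 (SE 0.47) and 1.598 (SE 0.36) therefore depend on the value added before the logarithm, and were 4.74 and 4.10 with 0.1 FPKM in place of 1. In libraries 2 and 3 they were 2.20 and 1.53 with 1 FPKM.

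C15B12.8 (chromosome X, 6474264 to 6476645, plus strand) had 4.70, 2.14 and 1.69 FPKM in the tryptophan libraries, against 0.0952, 0.230 and 0.494 FPKM in the control libraries. F07C6.6 (chromosome IV, 12792794 to 12793280, plus strand) had 8.06, 1.79 and 1.30 FPKM in the tryptophan libraries, against 0.470, 0.324 and 0.465 FPKM in the control libraries. Tryptophan library 1 led both, in F07C6.6 by so much that its SD (3.77 FPKM) exceeded its mean (3.72 FPKM). ZK218.5 (chromosome V, 17101129 to 17102109, plus strand) had 2.05, 2.76 and 2.97 FPKM in the tryptophan libraries, against 0, 0.619 and 1.00 FPKM in the control libraries. The differences of these 3 genes were 1.53 (SE 0.38), 1.45 (SE 0.54) and 1.27 (SE 0.37), and 1.1, 0.86 and 1.1 in libraries 2 and 3.

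**Figure D2:**
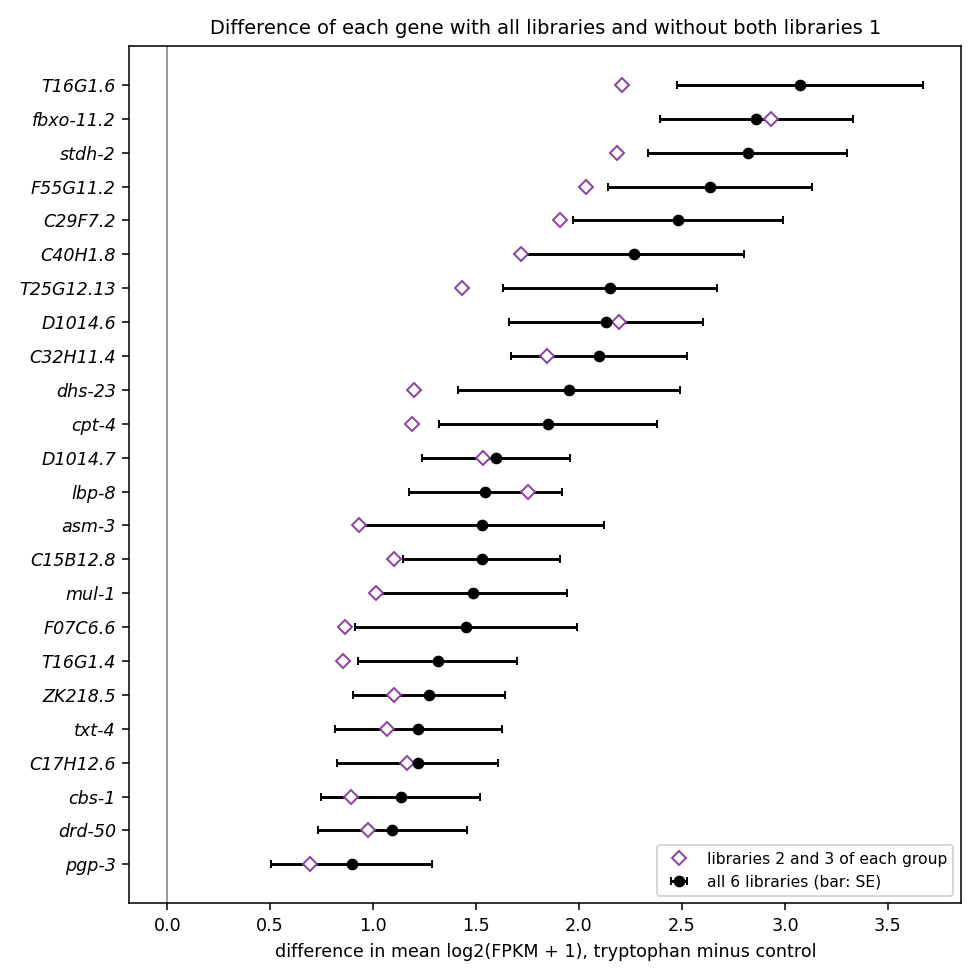
Difference in mean log2(FPKM + 1), tryptophan minus control, for each of the 24 genes. Black points with bars are the value over all 6 libraries with its SE, and open diamonds are libraries 2 and 3 of each group; 21 of the 24 diamonds lie left of their point, the exceptions being fbxo-11.2, D1014.6 and lbp-8.

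Without libraries 1 the differences of the 24 genes ranged from 0.70 to 2.93 with a median of 1.19, smaller than over all libraries for 21 genes. A linear model on those 4 libraries called 34 genes higher among all tested (limma, adjusted p under 0.05), or 0.252%, and 8 of the 24 were among them, from values that had also chosen them. Within the control group, library 1 was the lowest for 21 of the 24 genes, or 87.5%, as it was for 42.8% of all tested protein-coding genes. Within the tryptophan group, library 1 was the highest for 13 of the 24, or 54.2%, against 48.1% of all tested protein-coding genes. Both held together for 12 of the 24 genes, or 50%, against 3321 of the 12783 tested protein-coding genes, or 26%. Over the 24 genes the median of control library 1 minus the mean of control libraries 2 and 3 was -0.75 on the log2 scale. The same within the tryptophan group was 0.16. Over all tested protein-coding genes these medians were 0.12 and 0.05. The rule used the same values, and it leaves out genes high in any control library or low in any tryptophan library. These shares and medians of the 24 genes are therefore partly set by the rule and are a description only.

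**Figure D3:**
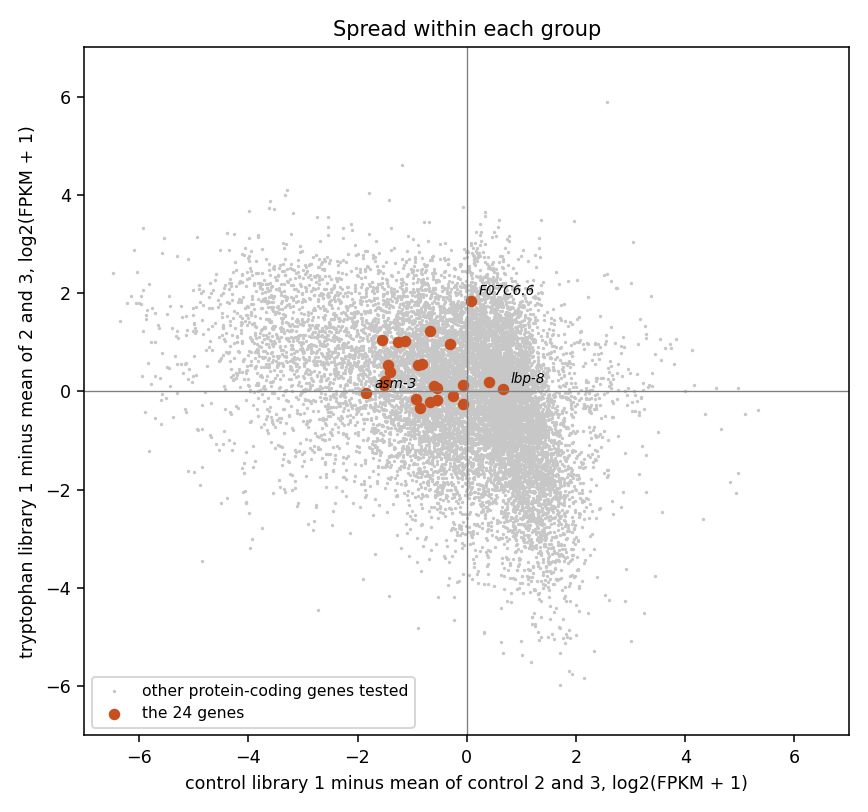
Spread inside each group, on the log2(FPKM + 1) scale. The horizontal axis is control library 1 minus the mean of control libraries 2 and 3, the vertical axis the same for tryptophan, grey points are the other tested protein-coding genes and orange points the 24 genes; most of the 24 lie left of 0, asm-3 farthest, while lbp-8 lies to the right and F07C6.6 highest.

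The genes differed in what limited their margin. The lowest tryptophan library was library 2 for 12 genes, library 3 for 9 and library 1 for 3. The highest control library was library 3 for 15 genes, library 2 for 6 and library 1 for 3 (fbxo-11.2, lbp-8 and F07C6.6). The ratio of lowest tryptophan to highest control value, each plus 1 FPKM, was at least 2 for 10 genes. Control means were low: under 1 FPKM for 9 genes and under 5 FPKM for 17, with a median of 1.78 FPKM against 14.2 FPKM over all tested protein-coding genes. These 9 genes reached the level for testing through their tryptophan values, so a difference was needed for them to be tested at all.

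**Figure D4:**
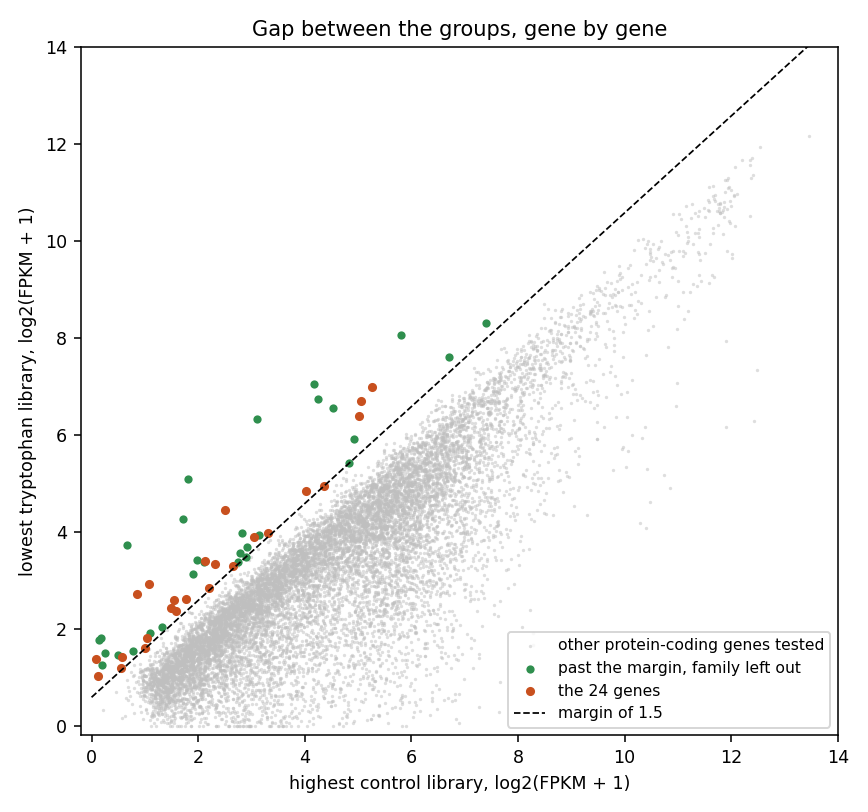
Lowest tryptophan library against highest control library for each tested protein-coding gene, both as log2(FPKM + 1). The dashed line is the margin of 1.5, orange points above it are the 24 genes, green points are the 29 genes of the families left out, and grey points are the other tested protein-coding genes, 10 of which passed the margin in the other direction.

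At the edge of the rule, the 3 genes just inside were txt-4, ZK218.5 and pgp-3, with ratios of 1.51, 1.52 and 1.54. The 3 just outside were C15F1.2 at 1.46, pud-1.1 at 1.43 and Y39B6A.30 at 1.42. C15F1.2 had 3.65, 2.91 and 3.27 FPKM in the tryptophan and 0.0255, 1.56 and 1.68 FPKM in the control libraries. pud-1.1 had 55.7, 11.51 and 15.2 FPKM in the tryptophan and 0.738, 7.74 and 7.67 FPKM in the control libraries, with tryptophan library 1 far above and control library 1 far below the rest of its group. F21G4.3 was the one protein-coding gene that passed the margin but not the level of 1 FPKM, with 1.54, 1.08 and 1.597 FPKM in the tryptophan and 0, 0.304 and 0.327 FPKM in the control libraries. Another 3 genes that passed are not protein coding.

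Position in the genome was not used by the rule. The 24 genes lay on chromosome V (9 genes, 37.5%), IV (8 genes, 33.3%), X (5 genes, 20.8%) and III (2 genes, 8.33%), with 0 on I and II. The same chromosomes held 18.8%, 17.3%, 13.3% and 16.1% of the tested protein-coding genes, and I and II held 17.1% and 17.3%. Another of the 53 genes past the margin lay within 10 kb of 8 of the 24 (33.3%), as for 1.23% of the tested protein-coding genes. The pairs within the set were T16G1.6 and T16G1.4, with 2966 bases between them, D1014.7 and D1014.6, with 750 bases, and drd-50 and mul-1, with 2162 bases. The other two lay near genes of families left out: lbp-8 is 5298 bases from cyp-35C1, and C32H11.4 is 6294 bases from irg-6, which had 2.76, 4.58 and 4.93 FPKM in the tryptophan and 0.344, 0.771 and 1.15 FPKM in the control libraries. Genes that lie side by side and are related in sequence are not independent of each other.

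Genes next to the 24 often differed from them. T16G1.5, between T16G1.6 and T16G1.4 on the same strand, had 2.89, 2.54 and 2.15 FPKM in the tryptophan libraries, within the 0.127, 2.86 and 3.296 FPKM of the control libraries. T16G1.7, on the other side of T16G1.6, had 13.2, 10.2 and 11.47 FPKM in the tryptophan and 1.31, 4.42 and 6.91 FPKM in the control libraries, groups that do not overlap but miss the margin with a ratio of 1.42. F49F1.5, between drd-50 and mul-1, had 69.7, 16.4 and 25.6 FPKM in the tryptophan and 1.15, 15.04 and 24.4 FPKM in the control libraries, with tryptophan library 1 the highest and control library 1 the lowest. sptl-3, between lbp-8 and cyp-35C1, had 12.1, 25.5 and 27.4 FPKM in the tryptophan and 33.7, 23.6 and 23.7 FPKM in the control libraries. dod-22, 52 bases from F55G11.2 on the other strand, had 11.07, 9.19 and 10.1 FPKM in the tryptophan and 7.41, 7.46 and 11.6 FPKM in the control libraries. In all, 70 tested protein-coding genes outside the set lay within 10 kb of one of the 24, and 2 of them passed the margin. Their differences had a median of 0.33, and 48 of the 70 (68.6%) were positive, against 47.1% of all tested protein-coding genes. These differences include libraries 1, and some positive ones rest on control library 1, as for F55G11.4. The part of libraries 1 in this share was not tested.

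**Figure D5:**
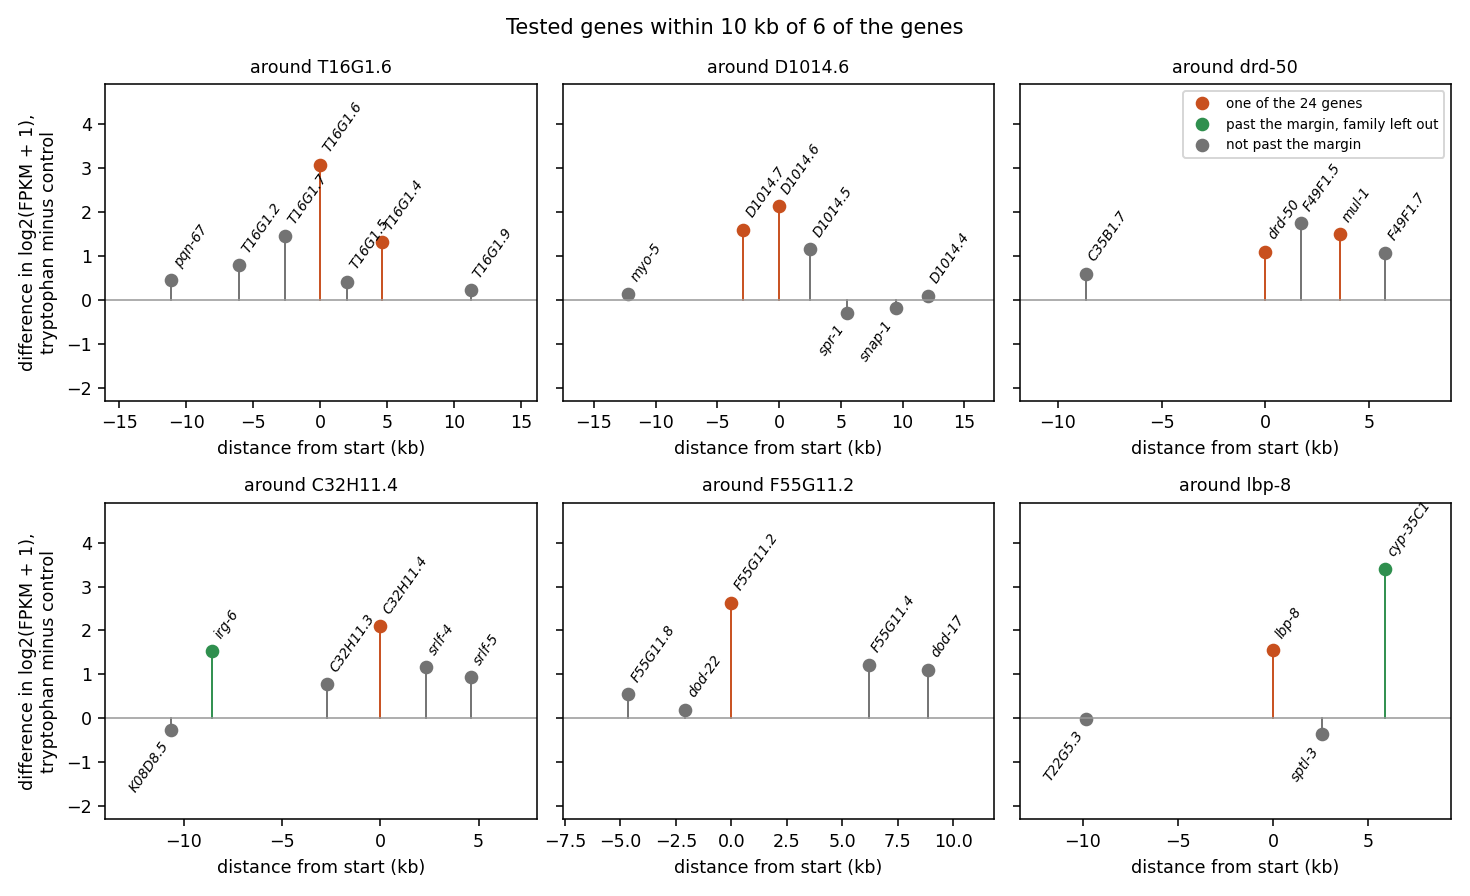
Difference in mean log2(FPKM + 1), tryptophan minus control, of every tested protein-coding gene within 10 kb of 6 of the genes, plotted by the distance of its start from the start of the gene named above the panel. Orange marks the 24 genes, green a gene past the margin from a family left out, and grey a gene not past it; large and small differences stand next to each other, as for T16G1.6 (3.07) and T16G1.5 (0.41).

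In 8 other lists of gene classes, 0 genes passed the margin in either direction. With 0.415% of all tested protein-coding genes passing in the higher and 0.0782% in the lower direction, a count of 0 in lists of this size is near the background and is not a result about these classes. The lists were 31 tested genes of other oxidising and reducing enzymes, 20 acyltransferase and methyltransferase-like genes, 66 secreted and gut proteases, 62 lysozyme, saposin and antimicrobial peptide genes, 60 chaperone genes, 106 solute carrier genes, 59 transthyretin-like and CAP-domain genes and 54 hedgehog-related and patched-related genes. The share of positive differences varied among them, from 21 of 60 for chaperones to 45 of 54 for hedgehog-related and patched-related genes, against 47.1% of all tested protein-coding genes. Positive differences were also found for 49 of 62 lysozyme, saposin and peptide genes and for 43 of 59 transthyretin-like and CAP-domain genes. All these differences include libraries 1, which stood apart, and the part of libraries 1 in them was not tested. Of the sperm genes 67 of 71 differences were positive, and of the oocyte and eggshell genes 0 of 20.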

How the data were processed

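Total RNA of whole animals went into 3 tryptophan and 3 control libraries, prepared with Illumina TruSeq chemistry as the labels' protocols state. Each deposited table holds the FPKM of every gene in 1 library, per the file headers. The submitters' processing notes name Bowtie 0.12.2, StringTie and the build WBcel235. Which annotation, filters, strand setting or scaling was used is not given in the sources used here. Of 46589 identifiers 46180 matched one gene of the WBcel235 annotation (Ensembl release 115), from which symbols, gene types and 1-based coordinates were taken. FPKM times transcript length, over 11048 genes with a single transcript of at least 600 bases, lay within 0.2 steps of a whole multiple of a library-wide step in 71.2% to 73.8% of low values. The steps correspond to an estimated depth, in megareads (or as many fragments), of 17.3, 20.4 and 24.9 in tryptophan and 14.4, 21.2 and 19.7 in control libraries 1 to 3. Because other low values were not whole, no counts were rebuilt and no count model was used.

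The rule was applied to the FPKM values. All 13511 genes with a mean of at least 1 FPKM were fitted in limma 3.58.1 (R 4.3.3) on log2(FPKM + 1) by group, with eBayes and trend, two-sided, Benjamini-Hochberg adjusted. The code was tested on data simulated with the spread between libraries 2 and 3 of each group, which leaves out the spread that libraries 1 add. The SE of each difference comes from this fit. An exact permutation test of 3 against 3 libraries was not used, since the rule had fixed its outcome. Python 3.11.15, pandas 2.3.3 and numpy 2.4.6 were used for counts. The members, gene lists and tests were chosen with earlier results of these data known. Named were the 15 widest margins, members that share a symbol stem or lie within 10 kb of each other, members with a gene name, and the genes at the edge of the margin; the other members, relatives and neighbours were named after their values were seen. The alternatives were other pseudocounts, filters, margins and scalings, variance models, a replicate block, and libraries left out. Sequences and promoter motifs were not analysed here.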

Additional observations from a re-analysis of the deposited data

How the results depend on the processing

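The 24 genes all stayed past the margin with median rescaling (27 genes in all). Pseudocounts of 0.5 (27) and 0.1 (33) and no filter (25) also kept them, but could not have lost any. A smaller pseudocount only widens the ratio of a gene whose groups do not overlap, and a gene past the filter stays without it. A mean of at least 5 FPKM left 13, a margin of 2 left 10 and a looser margin gave 49. The rule is easier to pass with fewer libraries, and leaving out 1 gave 25 to 83: 59 without tryptophan library 1, 83 without tryptophan library 2, 36 without tryptophan library 3, 38 without control library 2 and 48 without control library 3. Libraries 2 and 3 alone gave 75. Scaling mattered for the narrow margins. Rescaling to TPM kept 17 of the 24 (21 genes in all), losing C17H12.6, cbs-1, drd-50, asm-3, pgp-3, ZK218.5 and txt-4. Quantile normalization kept 16 (18 in all), losing lbp-8, D1014.7, C15B12.8, drd-50, T16G1.4, F07C6.6, mul-1 and pgp-3, with ratios of 0.98 for lbp-8 and 0.71 for F07C6.6, so that their groups overlapped. The cause was not tested.

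The median difference of the 24 genes was 2.04 and 2.49 with pseudocounts of 0.5 and 0.1, and 1.19 to 1.82 under the other settings. All 24 differences stayed positive in every setting run, which the rule had fixed wherever the scaling was unchanged. Of 288 single-gene values 26 moved by more than the spread between libraries. limma called 0 genes under every other setting, the replicate block included, but 68 (34 higher and 34 lower) in libraries 2 and 3 alone. A replicate block in the rule, with the margin asked within each same-numbered pair, gave 44 genes. Deviations of same-numbered libraries correlated at -0.37, -0.30 and -0.34, against -0.56 to 0.51 for differently numbered ones. Libraries 1 stood apart in opposite directions, so these values cannot show whether the numbers pair the libraries. The share of promoters with a motif was not run, as no promoter sequence was used here. Low control levels limit what can be said of the size of the differences of D1014.6, D1014.7 and stdh-2, whose direction the rule had fixed.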
